A study of Homo sapiens with 2 samples.

Results

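The genes described here are 37 genes of intestinal epithelial identity and cell junctions, followed through a ChIP-seq map of H4R3me2a, the asymmetrically dimethylated form of arginine 3 of histone H4, in HCT116 cells. They were chosen by symbol, with earlier results of these data known. All 37 were found among the 19970 protein-coding genes on chromosomes 1 to 22 and X in GENCODE release 44. The study set 1 H4R3me2a immunoprecipitation library against 1 input DNA library, both from formaldehyde cross-linked chromatin of HCT116, an established human colorectal carcinoma line that had received no drug. The authors' list held 33349 peaks on these chromosomes, and 64 of them had their summit in the body of a listed gene or within 1 kb of one of its transcription start sites (TSSs). There was 1 library on each side, so nothing below has a replicate check and no difference between genes was tested. The list records where the mark was enriched and carries no expression values, so the epithelial identity of the cells could not be checked from it.

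H4R3me2a is placed mainly by the arginine methyltransferase PRMT1 and is generally associated with active chromatin. Columnar epithelial cells of the gut are held together by tight junctions (claudins, occludin and the zonula occludens scaffold proteins), adherens junctions (E-cadherin with its catenins) and desmosomes, and are stiffened by simple-epithelial keratins. CDX1, CDX2, HNF4A, GATA6, KLF4, KLF5, ELF3 and GRHL2 are transcription factors of this lineage or of epithelia in general. Villin, mucins, galectin-4 and digestive or transport proteins mark its differentiated cells, and ESRP1 and ESRP2 direct epithelium-specific splicing.

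Summits were sorted into 3 classes. A summit within 1 kb of the 5' end of the gene, its outermost annotated base, was called a 5' end summit, a summit within 1 kb of any other annotated TSS of the gene an internal TSS summit, and any other summit inside the gene a body summit. The canonical TSS, that of the transcript marked canonical in the annotation, can lie far inside a gene when longer transcripts are annotated, as it does by more than 1 kb in 11 of the 37 genes. Distances from it are therefore given as well, positive downstream. Each peak's pileup is the number of fragments over its summit and its fold is the authors' ratio of pileup to local background, computed with 1 fragment added to each.

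Sequences around 4 of the TSS summits are shown because they cover several kinds of site, a CpG-dense gene start (KRT19), an intronic site below a canonical start (KRT8) and start sites inside genes (TJP3, ELF3). They are read from GRCh38, 5' to 3' on the strand of the gene. Capitals mark CACCC or its reverse complement GGGTG, the core that KLF factors recognise, and GGGCGG or its reverse complement CCGCCC, the GC box.
KRT19: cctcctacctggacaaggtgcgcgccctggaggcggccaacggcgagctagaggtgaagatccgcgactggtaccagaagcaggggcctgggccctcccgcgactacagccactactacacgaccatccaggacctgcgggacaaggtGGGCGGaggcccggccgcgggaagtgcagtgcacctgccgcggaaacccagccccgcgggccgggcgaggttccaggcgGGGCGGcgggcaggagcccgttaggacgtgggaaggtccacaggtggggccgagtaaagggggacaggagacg
KRT8: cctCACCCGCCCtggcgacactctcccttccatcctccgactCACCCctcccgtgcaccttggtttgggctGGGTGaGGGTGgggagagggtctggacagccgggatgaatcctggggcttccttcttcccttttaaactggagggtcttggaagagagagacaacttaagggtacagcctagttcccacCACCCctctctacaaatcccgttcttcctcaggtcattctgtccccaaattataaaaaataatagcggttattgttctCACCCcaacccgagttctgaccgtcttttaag
TJP3: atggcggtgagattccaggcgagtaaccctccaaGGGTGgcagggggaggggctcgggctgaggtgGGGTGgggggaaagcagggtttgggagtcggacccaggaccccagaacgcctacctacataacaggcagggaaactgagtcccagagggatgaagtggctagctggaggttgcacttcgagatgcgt
ELF3: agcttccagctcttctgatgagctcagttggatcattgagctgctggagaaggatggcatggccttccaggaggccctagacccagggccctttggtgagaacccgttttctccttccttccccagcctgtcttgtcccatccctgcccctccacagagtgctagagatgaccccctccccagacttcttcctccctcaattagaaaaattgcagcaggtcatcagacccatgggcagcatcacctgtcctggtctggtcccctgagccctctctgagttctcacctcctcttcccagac

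The KRT19 sequence (chr17:41527674-41527973, minus strand) had 70.3% GC, 28 CG dinucleotides and 2 GC boxes. The KRT8 sequence (chr12:52904256-52904555, minus strand) had 53.7% GC, 9 CG dinucleotides, 6 CACCC-type matches and 1 GC box. The TJP3 sequence (chr19:3721893-3722085, plus strand) had 61.7% GC, 2 CACCC-type matches and no GC box. Neither motif occurred in the ELF3 sequence (chr1:202012342-202012641, plus strand), which had 56.7% GC. The summit is base 151 of the KRT19 and KRT8 sequences, base 43 of the TJP3 sequence and base 150 of the ELF3 sequence. The higher peak of KRT8 and that of TJP1 are not printed, since their summits lie in untranslated sequence of at least 1 annotated transcript.

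Over the 301-bp windows centred on the 64 summits, CACCC was present on either strand in 40 (62.5%), against 75.1% of the windows of all peaks. The GC box was present in 18 (28.1%, against 25.1%). Cores recognised by the other factor families of the list were near their shares in all peaks, with GATAA (GATA factors) in 7 windows (10.9%, against 12.5%), CTTTG (part of the HNF4 site) in 33 (51.6%, against 50.1%), GGAAG (ETS factors such as ELF3) in 44 (68.8%, against 71.7%) and AACNNGTT (grainyhead factors) in 1 (1.56%, against 2.08%). TTTAT, the core of the CDX site, was in 15 windows (23.4%) and in 16.9% of those of all peaks. A match describes the letters only and does not show a bound factor.

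At least 1 summit lay in 28 of the 37 genes (75.7%), where the share over all protein-coding genes was 47.2%. A 5' end summit was present in 8 genes (21.6%, against 19.2% of all genes), an internal TSS summit in 14 (37.8%, against 18.1%) and a body summit in 16 (43.2%, against 32.8%). Either kind of TSS summit was found in 19 genes (51.4%, against 31.6%). The share with a summit within 1 kb of the canonical TSS was 14 of 37 (37.8%) in the listed genes and 21.4% in all genes. The listed genes thus stood near the share of all genes at the annotated 5' end and above it at the other positions, with no test of these differences. Among peaks with a fold of 4 or more the higher body share was lost, with a body summit in 9 of the 37 genes (24.3%), against 25% of all genes. The genes were of ordinary size, with a median length of 23 kb and a median of 6 annotated TSSs, against 27.5 kb and 5 TSSs over all protein-coding genes.

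**Figure D1:**
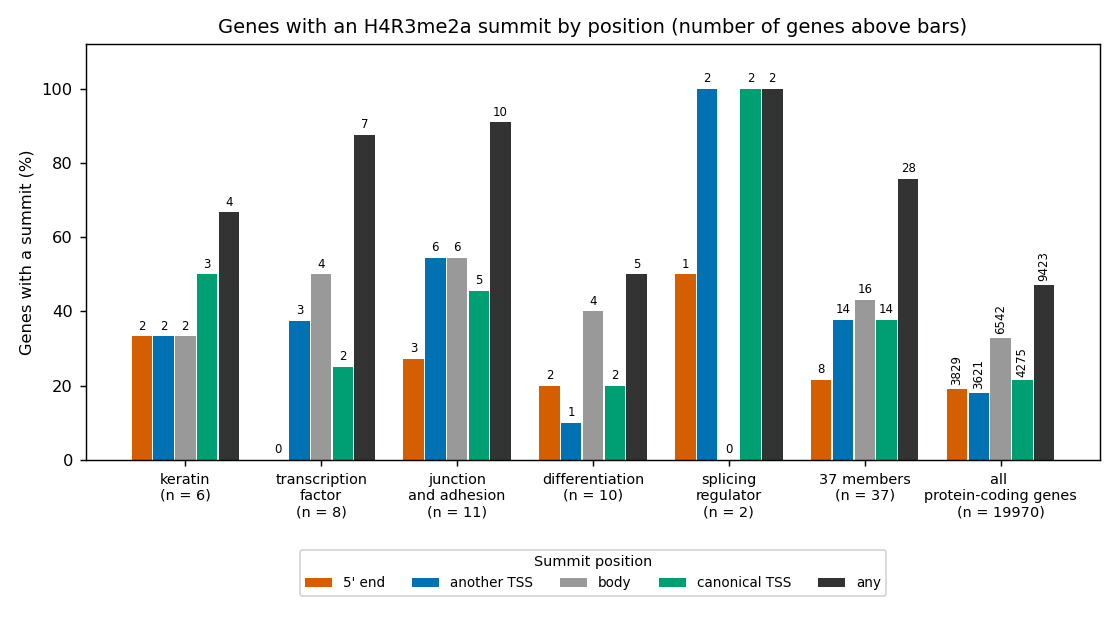
Percentage of genes with a summit at the 5' end, at another TSS, in the body, at the canonical TSS and anywhere, for the 5 role groups, the 37 genes together and all protein-coding genes, with the number of genes above each bar. Junction and adhesion genes reached 10 of 11 for any summit and differentiation genes 5 of 10. No transcription factor gene had a 5' end summit, where 1.64 were expected from GC content.

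The role groups are small, and their counts are given as a description with no test between them. Of the 11 junction and adhesion genes, 10 had a summit (90.9%, against 47.2% of all genes) and 8 a TSS summit (72.7%, against 31.6%). They held 27 of the 64 summits. Among the 8 transcription factor genes 7 had a summit (87.5%, against 47.2%), 3 had one at an internal TSS (37.5%, against 18.1%) and 4 had one in the body (50%, against 32.8%). None had one at the 5' end, against 19.2% of all genes. Only 1.64 summits were expected there from GC content (described below), so this absence says little. Of the 6 keratin genes 4 had a summit (66.7%, against 47.2%), and 3 had one at the canonical TSS (50%, against 21.4%). Each class had 2 keratin genes (33.3%), against 19.2% of all genes at 5' ends, 18.1% at internal TSSs and 32.8% in bodies. Among differentiation genes 5 of 10 held a summit and 3 of 10 a TSS summit (50% and 30%), near the shares of all genes (47.2% and 31.6%). ESRP1 and ESRP2 both had TSS summits and neither had a body summit. Only 0.302 body summits were expected in these 2 genes from GC content, so their absence says little.

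The keratin genes contained the peak with the highest fold of the 64. KRT8, the type II keratin of simple epithelia, had 7 summits, a number reached or passed by 4.53% of protein-coding genes. The strongest lay in intron 1 of the canonical transcript (chromosome 12, 52903360 to 52903751), 1483 bp below the canonical TSS and 55 bp below another annotated TSS. It had a pileup of 14 fragments over a background of 1.02, a fold of 7.41, and 99.6% of all peaks had a lower fold. A second KRT8 peak in the same intron (52904120 to 52904535, fold 4.93, 10 fragments) lay 671 bp below the canonical TSS and the last (52902400 to 52902541, fold 4.45, 8 fragments) lay 2571 bp below it, so that 3 summits fell within intron 1. The other 4 KRT8 summits lay upstream, at −39567 to −7135 bp from the canonical TSS and under the longer transcripts, with folds of 3.44 to 4.71.

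KRT18, the type I partner that forms filaments with KRT8, had no summit, although its gene overlaps the outermost end of KRT8 on the opposite strand. The nearest summit to its canonical TSS, 4475 bp away, was a body summit of KRT8. KRT19, a type I keratin of simple and glandular epithelia, had a single peak (chromosome 17, 41527714 to 41527870) whose summit lay in intron 1, 485 bp below the start, with 11 fragments, a fold of 5.93 and 35 CG dinucleotides within 200 bp on either side. KRT7, a keratin of ductal epithelia, had a 5' end peak (chromosome 12, 52232662 to 52232827, fold 4.25, 7 fragments), 167 bp below the outermost start and 556 bp above the canonical one, and an internal TSS peak (52238395 to 52238541, fold 4.26, 8 fragments). KRT80 carried 4 summits, all in the far part of the gene 17308 to 21791 bp below its start, in intron 4, the last coding exon and the 3' untranslated region, with folds of 3.09 to 5.23. The non-coding gene LINC00592 overlaps each of the 4 summits or has a TSS within 1 kb of it. KRT20, a keratin of differentiated gut epithelium, had none, and the nearest summit to its start was 349 kb away.

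**Figure D2:**
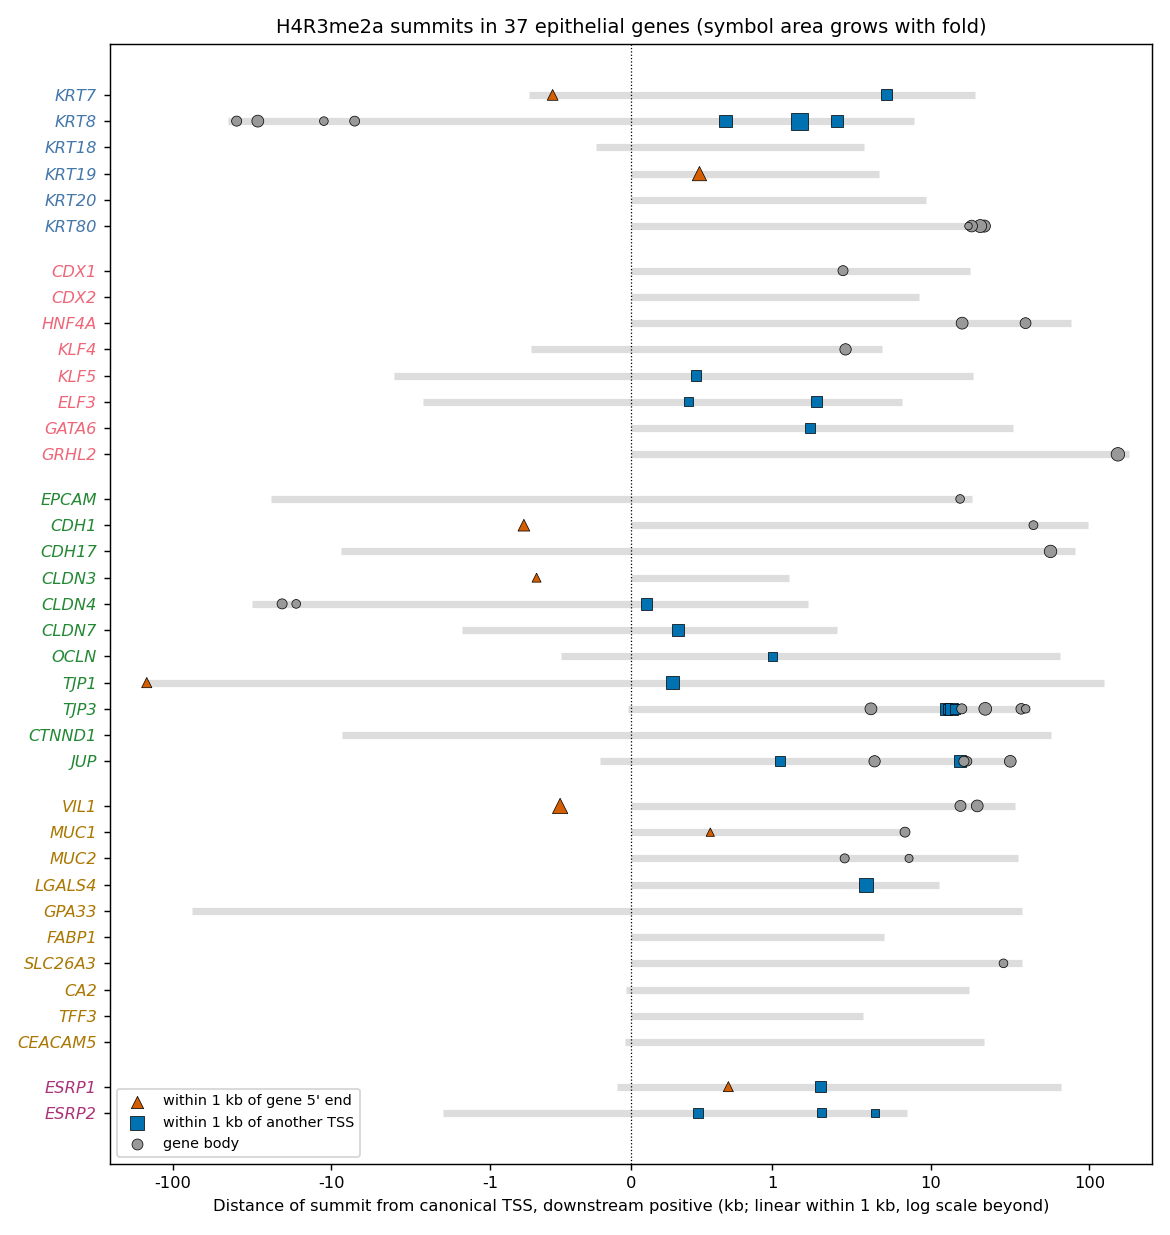
Position of each of the 64 summits relative to the canonical TSS of its gene (kb, downstream positive, linear within 1 kb and logarithmic beyond), 1 row per gene, grouped by role from keratins at the top to splicing regulators at the bottom. Grey bars are the annotated gene spans, symbol shape and colour give the class, and symbol area grows with the fold. Blue squares close to 0 at CLDN4, TJP1, CLDN7, ELF3, KLF5, ESRP2 and KRT8 are canonical starts that lie inside a longer annotated gene.

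Among the transcription factor genes, only KLF5 and ELF3 had a summit within 1 kb of the canonical TSS. KLF5, a factor of proliferating crypt cells, had a peak in the first coding exon (chromosome 13, 73059403 to 73059541, fold 4.06, 7 fragments), 459 bp below the canonical TSS in the most GC-rich sequence of any of the 64 summits (77.3%, 57 CG dinucleotides). ELF3, an ETS factor restricted to epithelia, had a peak in intron 1, 410 bp below the canonical TSS (chromosome 1, 202010900 to 202011026, fold 3.64, 9 fragments), and a peak in intron 4 (202012300 to 202012508, fold 4.34, 10 fragments). ELF3-AS1, an antisense non-coding gene, overlaps the first of these summits or has a TSS within 1 kb of it. The same holds for another non-coding gene at both ELF3 summits, and ChIP fragments do not tell the genes apart. GATA6, a zinc-finger factor of gut endoderm, had a peak in a coding exon, 1745 bp below its start (chromosome 18, 22171229 to 22171509, fold 3.94, 9 fragments), also in CpG-dense sequence with 72.8% GC.

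The homeobox gene CDX1 had a peak in intron 1, 2801 bp below its start (chromosome 5, 150169530 to 150169789, fold 3.94, 9 fragments), while CDX2, the main regulator of intestinal fate, had none. The nearest summit to the CDX2 start was 8.55 kb away. HNF4A, a nuclear receptor of gut and liver, had 2 peaks in its long first intron, at 15782 and 39617 bp from the start, with folds of 4.71 and 4.27. KLF4, a factor of post-mitotic gut cells, had a peak in intron 4 (chromosome 9, 107486816 to 107486953, fold 4.48, 9 fragments). GRHL2, a grainyhead factor that sustains junction genes, had the highest fold of this group, 5.48 from 13 fragments, in intron 12 (chromosome 8, 101643705 to 101643886), 151406 bp from the start. The nearest summit to the GRHL2 start was 70.2 kb away.

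Each of the 3 claudin genes, which encode the sealing strands of tight junctions, had a summit within 1 kb of its canonical TSS. CLDN3 and CLDN4 lie 29.3 kb apart. CLDN3 had a peak 670 bp upstream of its start (chromosome 7, 73770823 to 73770952, fold 3.55, 8 fragments) and CLDN4 a peak 109 bp below its canonical TSS in the single exon (73831061 to 73831186, fold 4.45, 8 fragments). CLDN4 also had 2 summits, with folds of 3.94 and 3.46, under a long transcript that starts upstream of the canonical one. CLDN7 had a peak 334 bp below its canonical TSS in exon 1 (chromosome 17, 7262127 to 7262307, fold 4.54, 10 fragments). Another coding gene overlaps this CLDN7 summit or has a TSS within 1 kb of it. OCLN, the occludin gene, had a peak in intron 1 (chromosome 5, 69493632 to 69493805, fold 3.55, 8 fragments), 1012 bp from the canonical TSS and just outside the 1 kb window around it, though 108 bp from another TSS.

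TJP1 and TJP3 encode the zonula occludens proteins ZO-1 and ZO-3, which tie claudins and occludin to actin. TJP1, at 270 kb the longest of the 37 genes, had a summit at its canonical and at its outermost start. The higher peak (chromosome 15, 29821921 to 29822375, fold 5.43, 10 fragments) lay in exon 1, 296 bp below the canonical TSS, and the other (29968320 to 29968452, fold 4.00, 6 fragments) lay 549 bp below the outermost 5' end. TJP3 had 9 summits, the most of the 37 genes, a number reached or passed by 2.58% of protein-coding genes. Of these, 4 were packed between 12458 and 14284 bp from the canonical TSS, around internal TSSs within intron 1, with folds of 3.94 to 5.06 and pileups of 6 to 8 fragments. The other 5 were body summits, and the highest fold among them was 5.13 in coding exon 5 (chromosome 19, 3730352 to 3730619, 12 fragments). No summit lay within 1 kb of the TJP3 start, the nearest being 4201 bp below it.

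Adherens junction and desmosome genes differed from each other. CDH1, the E-cadherin gene, had a peak 760 bp upstream of its start (chromosome 16, 68736446 to 68736730, fold 4.64, 7 fragments) and a peak in intron 2 (68781549 to 68781760, fold 3.52, 8 fragments). The sequence at the upstream summit is repeated, as its central 32 bases occur 1458 times in the genome. CTNND1, which encodes the p120 catenin that stabilises E-cadherin at the membrane, had no summit in 66.3 kb, where 0.453 were expected from GC content. JUP, which encodes plakoglobin, a catenin of both adherens junctions and desmosomes, had 6 summits, including an internal TSS peak in intron 2 (chromosome 17, 41771360 to 41771629, fold 4.92, 14 fragments) and a peak in the 3' untranslated region (41754833 to 41755145, fold 4.65) whose 16 fragments were the highest pileup of the 64. The first JUP summit below the start lay at 1115 bp, outside the window around the canonical TSS. EPCAM, an epithelial adhesion molecule, had 1 summit in intron 7 (chromosome 2, 47384565 to 47384702, fold 3.44, 6 fragments), and CDH17, the liver-intestine cadherin, had 1 in intron 13 (chromosome 8, 94151522 to 94151782, fold 4.99, 10 fragments).

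Differentiation genes held 9 summits. VIL1, which encodes the microvillus protein villin, had the next highest fold after KRT8, 6.46 from 13 fragments over a background of 1.17 (chromosome 2, 218418491 to 218418699), 503 bp upstream of the canonical TSS. It also had peaks in coding exon 14 (fold 4.34) and in intron 18 (fold 4.67). LGALS4, the galectin-4 gene of the brush border, had a peak near an internal TSS in intron 2 (chromosome 19, 38808973 to 38809230, fold 5.67, 9 fragments), 3887 bp below its start. MUC1, a membrane mucin, had a 5' end peak in intron 1 (chromosome 1, 155192313 to 155192463, fold 3.33, 6 fragments), which had the lowest −log10 q of the 64 (1.34). It also had a peak in its 3' untranslated region (fold 3.91), and another coding gene overlaps that summit or has a TSS within 1 kb of it. MUC2, the secreted mucin of goblet cells, had 2 peaks in introns 3 and 7 with folds of 3.58 and 3.27. SLC26A3, the chloride-bicarbonate exchanger of colon surface cells, had 1 peak in intron 16 (chromosome 7, 107774328 to 107774552, fold 3.46, 6 fragments).

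No summit was assigned to GPA33, FABP1, CA2, TFF3 or CEACAM5. These encode an intestinal surface antigen, a fatty-acid binding protein, a carbonic anhydrase, the goblet-cell trefoil peptide and the carcinoembryonic antigen. The nearest summit to the canonical TSS was 7.06 kb away at TFF3 and 131 to 245 kb away at the other 4. With KRT18, KRT20, CDX2 and CTNND1 they make up the 9 genes without a summit. Apart from GPA33 (1.56), the summits expected in these genes from GC content ranged from 0.0351 in KRT20 to 0.922 in CDX2. Absences at such low expected numbers say little. A missing peak does not show that the mark was absent. Called peaks had at least 5 fragments where the background was under 0.8 fragments, and at least 8 where it was 1.6 to 2.6.

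Each splicing regulator gene had 1 summit within 1 kb of its canonical TSS and the rest farther inside the gene. ESRP1 had a peak 690 bp below its canonical TSS in intron 1 (chromosome 8, 94641623 to 94641885, fold 3.94, 9 fragments) and an internal TSS peak in intron 2 (94643070 to 94643204, fold 4.24, 9 fragments). ESRP2 had 3 internal TSS summits in coding exons 2, 3 and 11, at 476, 2058 and 4472 bp below its canonical TSS, where the fold was 4.02, 3.62 and 3.34 in that order. The exon 11 summit had the most fragments of the 3, 11 against 9 and 8, and the lowest fold, with a background of 2.59 fragments against 1.49 and 1.48.

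Some internal TSS summits lay at canonical starts. Of the 11 genes with an internal TSS summit and none at the 5' end, 6 had a summit within 1 kb of the canonical TSS, namely KRT8, KLF5, ELF3, CLDN4, CLDN7 and ESRP2. Within 1 kb of the canonical TSS, 10 summits of the listed genes lay downstream and 4 upstream (71.4% downstream), against 78% downstream over all protein-coding genes. The upstream summits were those of KRT7, CDH1, CLDN3 and VIL1. At the edge of the 1 kb window used for all TSSs, the summits farthest inside were at 931 bp in TJP3 and 851 bp in ESRP2 (folds 3.94 and 3.34), and the nearest outside were at −1027 and 1451 bp in TJP3 (folds 4.17 and 3.37). On the canonical transcript, 39 of the 64 summits were intronic, 8 in coding exons, 3 in exons of the 5' and 3 of the 3' untranslated region, and 11 outside the transcript. At 2 of the 64 summits another protein-coding gene overlapped the summit or had a TSS within 1 kb of it, and at 10 a non-coding gene did.

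In strength the 64 peaks lay near the middle of all peaks. Their median pileup was 9 fragments and median fold 4.20, against 10 fragments and 4.18 over all peaks. Median width was 188 bp and median GC content within 200 bp of the summit 57.9%, against 185 bp and 59.6%. Only the peaks of KRT8 and VIL1 reached a −log10 q of 5 (3.12% of the 64, against 3.84% of all peaks). The exact 95% Poisson interval of the pileup covers counting error only. It contained 9 fragments, the median of these same pileups, at 63 of the 64 summits. The exception was the JUP peak of 16 fragments (9.15 to 26). The pileups spanned only 6 to 16 fragments, so this count does not show that the peaks were alike in strength. The KRT8 peak of 14 fragments had an interval of 7.65 to 23.5 and the VIL1 peak of 13 one of 6.92 to 22.2. By class, the median fold was 4.12 at 5' ends, 4.26 at internal TSSs and 4.00 in bodies, against 4.42, 4.20 and 4.12 over all protein-coding genes.

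**Figure D3:**
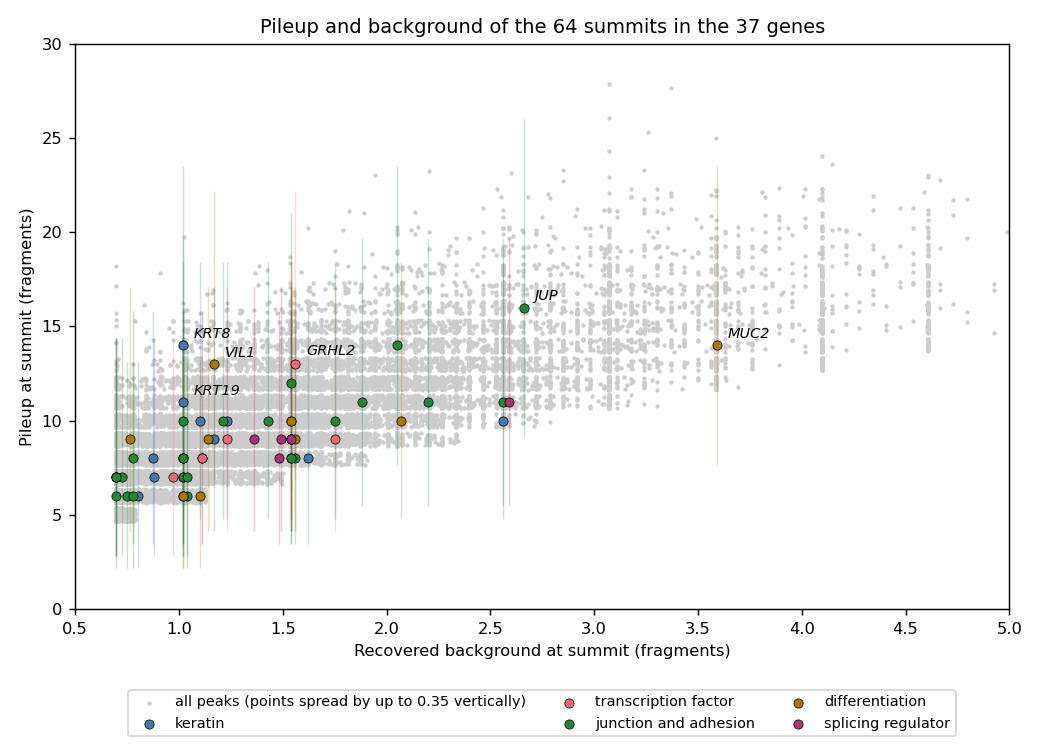
Pileup at the summit against the recovered background, both in fragments, for the 64 summits coloured by the role of their gene, with exact 95% Poisson intervals as vertical lines, and for all peaks in grey. The 157 peaks beyond the axes are not drawn. The listed genes' summits lie within the cloud of all peaks, with KRT8 at 14 fragments over 1.02 and VIL1 at 13 over 1.17 near its upper edge.

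Summits were unevenly shared among the genes. TJP3, KRT8 and JUP together held 22 of the 64 (34.4%), 13 genes had a single summit, 8 had 2 and 3 had 3. In total the listed genes had 3.97 summits per 100 kb, against 2.04 over all protein-coding genes. A second yardstick took base composition into account. From the rate of peaks at each GC content over the genome, 44 summits were expected in the 37 genes, and the 64 observed were 1.46 times that number, against 1.24 times over all protein-coding genes. By class the ratios were 1.06 at 5' ends (8 observed, 7.57 expected), 2.24 at internal TSSs (23 and 10.3) and 1.26 in bodies (33 and 26.1), against 1.15, 1.61 and 1.16 over all protein-coding genes. Without KRT8, TJP3 and JUP, picked for their high numbers, the listed genes had 42 summits against 36.7 expected (1.14). The ratio was then 1.16 at 5' ends, 1.73 at internal TSSs (14 observed, 8.11 expected) and 0.92 in bodies. The internal TSS ratio thus came close to the 1.61 of all genes, while 11 of the 34 genes (32.4%, against 18.1%) still had such a summit. Without MUC2, picked for its low number, the listed genes had 62 summits against 35.9 (1.73), and the body ratio was 1.63.

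By role, keratin genes had 14 summits against 6.71 expected (2.09), or 7 against 4.73 (1.48) without KRT8. Junction and adhesion genes had 27 against 13 (2.08), or 12 against 7.74 (1.55) without TJP3 and JUP. Transcription factor genes were close to expectation with 9 against 8.31 (1.08). Differentiation genes had 9 against 14 (0.642), a deficit that lay in MUC2, where 8.02 summits were expected over its GC-rich sequence and 2 were found. The cause of this deficit was not tested. For every gene the expectation rests on GC content alone and takes no account of repeated sequence, where reads cannot be placed uniquely. Without MUC2 the differentiation genes had 7 against 6 (1.17). ESRP1 and ESRP2 together had 5 against 1.94 (2.58).

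**Figure D4:**
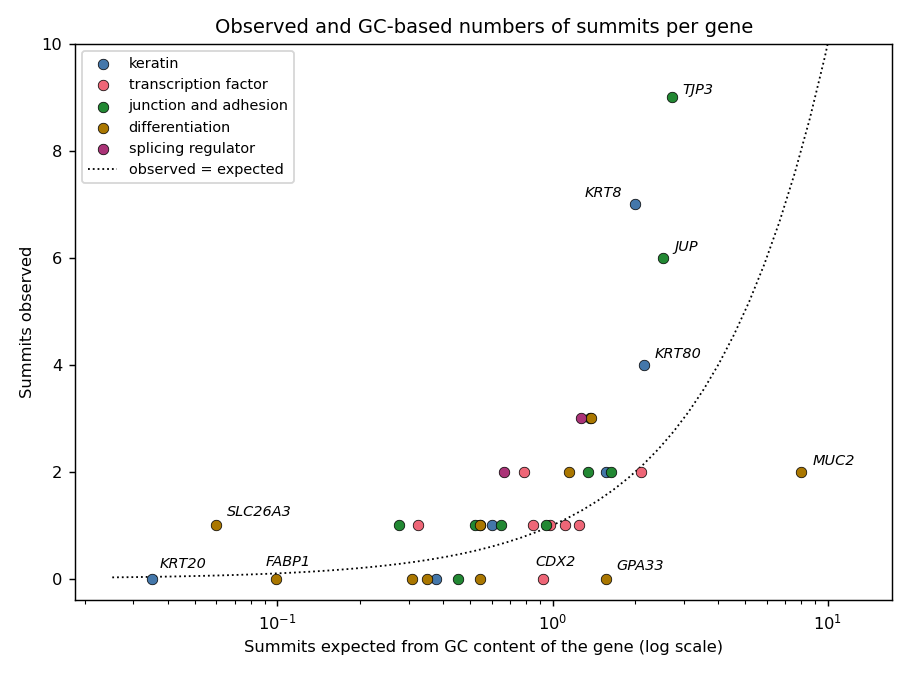
Observed number of summits in each of the 37 genes against the number expected from its GC content (log scale), coloured by role. The dotted line marks equality. TJP3 (9 observed, 2.71 expected), KRT8 (7 and 1.99) and JUP (6 and 2.52) lie above it, and MUC2 (2 and 8.02) lies below.

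Related genes outside the list gave a setting for these counts. A summit lay in 4 of the 6 listed keratins and in 5 of the 49 other keratin genes (10.2%), of which KRT82 (fold 4.94) and KRT15 (4.8) had one at a TSS. It lay in 3 of 3 listed claudins and in 2 of the 21 other claudin genes (9.52%), CLDN9 (5.71) and CLDN15 (4.17). The listed keratins had medians of 14.5 kb and 7 TSSs, and the other keratin genes were shorter, with 6.43 kb and 2 TSSs. The other claudin genes had medians of 6.73 kb and 3 TSSs. Other adherens junction and desmosome genes had a summit in 17 of 19 (89.5%, against 47.2% of all protein-coding genes). A TSS summit lay in 13 of them (68.4%, against 31.6%), led by NECTIN1 (5.91), CTNNB1 (5.89), VCL (5.52) and NECTIN2 (5.43). Other tight junction and polarity genes had a summit in 14 of 19 (73.7%) and a TSS summit in 11 (57.9%), led by CRB3 (5.86), CGN (5.67), PRKCZ (5.52) and MAGI3 (5.43). The listed junction and adhesion genes had a median length of 42.5 kb, and these 2 groups were longer, with 65.4 and 83.6 kb. Their summits were 1.82 and 1.85 times the number expected from GC content, near the 2.08 times of the listed junction and adhesion genes. The other claudin genes had 0.467 times the expected number.

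The listed transcription factor genes had a summit in 7 of 8 and at the 5' end in 0 of 8, against 12 of 22 (54.5%) and 6 of 22 other intestinal and epithelial factors. In the 8 listed genes 1.64 summits were expected at 5' ends, and 19.2% of all protein-coding genes had one. SOX9 (5.42), GRHL1 (5.07), KLF3 (4.94) and OVOL1 (4.62) were the highest of the others at TSSs. At the canonical TSS the listed factors had a summit in 2 of 8 (25%) and the other factors in 6 of 22 (27.3%). Other intestinal differentiation genes had a summit in 18 of 38 (47.4%), near the share of all protein-coding genes (47.2%). The brush-border genes ALPI (fold 8.35), MYO1A (6.72), ESPN (6.56) and CDHR2 (6.47) were highest at TSSs in that list, and ALPI exceeded the fold of KRT8. Mesenchymal genes, used as a list from another cell type, had a summit in 9 of 26 (34.6%). A TSS summit lay in 8 of them (30.8%), near the share of all protein-coding genes (31.6%). At TSSs, TAGLN (5.91), COL1A1 (5.75), COL6A2 (5.11) and PDGFRB (4.31) were highest.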

How the data were processed

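Peak positions, pileups, folds and −log10 p- and q-values were taken from the deposited table of peaks, called on 1 H4R3me2a library against 1 input library. The submitters' processing notes name Bowtie2, MACS2, deepTools and GRCh38, with versions, settings, read filters and library depths not given in the sources used here. Per the file headers, the pileup is a signal at the summit, the fold enrichment is a ratio over the local background, and significance is given as −log10 of a p-value and of a q-value. The pileups are whole numbers and were read as fragments not divided by depth. Values are the authors' and describe peaks within this list only.

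Summits were assigned to GENCODE 44 genes with Python 3.11.15 (pandas 2.3.3). The background was recovered as (pileup + 1) / fold − 1. Expected summits used the genome-wide peak rate by GC content (bins of 2%, windows of 401 bp, steps of 10 bp). Class assignment was tested on simulated summits. Copies of the 32 bases centred on each summit were counted exactly on both strands. The genes and lists were chosen with earlier results of these data known. All 37 genes are named with their highest peak per class, and up to 4 genes per comparison list with the highest-fold TSS peak. No test across genes was made, and intervals cover counting error only.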

Additional observations from a re-analysis of the deposited data

How the results depend on the processing

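Counts over the 37 genes were recomputed under 10 alternatives and under 1 added after seeing the data, which left out summits whose central 32 bases occur more than once. With −log10 q of 5 or more, 1 gene had a 5' end peak, 1 an internal TSS peak, 0 a body peak and 2 any peak, with 2 summits. The shares of the 37 genes were then 2.7%, 2.7%, 0% and 5.41%, and those of all protein-coding genes 1.59%, 1.55%, 2.5% and 5.25%. With the higher 50% of −log10 q, 3 genes (8.11%) had a 5' end peak, below the 11.3% of all genes, 9 (24.3%) had a body peak, near the 21.4% of all genes, 7 (18.9%, against 12%) had an internal TSS peak and 15 (40.5%, against 33.1%) had any peak, with 26 summits. With a fold of 4 or more, 4 genes (10.8%, against 13.9% of all genes) had a 5' end peak and 9 (24.3%, against 25%) a body peak, with 37 summits, so that neither share exceeded that of all genes. The 5' end count moved to 2 genes with a 500 bp window (5.41%, against 9.83%), 15 with a 3 kb window (40.5%, against 30.8%) and 14 with the canonical TSS as the 5' end (37.8%, against 21.4%). The remaining values stayed within 1.5 times, at 7 to 8 genes for 5' ends, 11 to 14 for internal TSSs, 12 to 21 for bodies, 20 to 29 for any peak and 56 to 66 summits. With only unique summits, 26 genes had any peak and EPCAM and SLC26A3 had none. No paired analysis was possible because there was 1 library on each side. Low pileups limit what could be called.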

Other observations

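Around the listed genes, further summits lay within 10 kb outside the gene without being assigned to it. MUC1 had 6 of these, KRT18 and TJP3 had 3 each, and KRT19, CLDN4 and CLDN7 had 2 each. CDX2 and TFF3, which had no summit of their own, each had 1 in this flank. The flanks of KRT20, CTNND1, GPA33, FABP1, CA2 and CEACAM5 had none. The median distance from the canonical TSS to the nearest summit was 2.87 kb in the listed genes and 18.4 kb over all protein-coding genes. It was 1.01 kb in junction and adhesion genes and 17.9 kb in differentiation genes.

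The 32 bases at the centre of the summit occurred once in the genome at 59 of the 64 summits (92.2%), against 95.3% of all peaks. The other 5 were the 5' end summit of CDH1 (1458 copies), body summits of HNF4A (1846 copies), KRT8 (132) and SLC26A3 (21), and the summit of EPCAM (125). At the upstream VIL1 summit the central 32 bases were unique, while 6 of 9 stretches of 32 bases across the window were, and the most repeated occurred 14572 times.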
